A study of Homo sapiens with 6 samples.

Results

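The genes described here are 10 members of the integrated stress response, namely ATF4, DDIT3, CEBPB, ATF3, TRIB3, SESN2, CHAC1, ASNS, PSAT1 and SHMT2. They were chosen by name, as the ATF4 branch of the response and its targets, with earlier results of these data known. Each symbol matched 1 of the 35268 named genes in the expression table. mRNA was sequenced in Rh30, a patient-derived cell line of fusion-positive rhabdomyosarcoma (FP-RMS), a muscle-lineage tumor driven by the PAX3-FOXO1 fusion. There were 3 libraries from cells given a 1 µM dose of an inhibitor of ETS family factors for 24 hours, a small molecule called YK here and by its full name in the keys of the plots, and 3 libraries from cells given its vehicle, DMSO, for 24 hours. Both groups grew in RPMI medium supplemented with serum, pyruvate and non-essential amino acids, so both shared that amino acid supply. Rh30 was the only line sequenced, which limits the comparison to 1 genetic background. Nothing in the labels states that the replicates were separate cultures, so the p-values measure only the spread between these libraries, which may be technical.

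The integrated stress response slows general protein synthesis when a kinase phosphorylates the initiation factor eIF2, and under the same condition the ATF4 mRNA is translated more efficiently. ATF4 then activates genes of amino acid supply, redox balance and, under prolonged stress, cell death. Much of the control of ATF4 is thus exerted on its protein, which an mRNA table does not show.

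The values are normalized counts, that is, reads per gene divided by a size factor of each library. The smallest value above 0 was 1.26, 0.999 and 0.835 in the 3 DMSO libraries in order, and 0.857, 1.09 and 1.00 in the 3 treated libraries. With that value taken as 1 read, the libraries held between 16724650 and 24677433 reads on named genes. The library that differed most from the rest was DMSO replicate 1. Its mean correlation with them across genes was 0.989, against 0.992 or more for each other library, and 6.05% of its normalized counts lay on the 13 mitochondrial mRNAs, against 4.99% and 4.93% in the other DMSO libraries and 4.74%, 5.03% and 4.80% in the treated ones. The members and the counts of genes called are therefore also given without this library. All 8 rhabdomyosarcoma markers examined were abundant, with mean normalized counts from 1087 (TFAP2B) to 36993 (MYOD1). The leukocyte markers PTPRC and CD3E and the epithelial markers CDH1 and KRT5 were at or near 0, with mean normalized counts of at most 0.286, while the epithelial marker EPCAM had a mean of 64.6. The summed normalized count of the 4 endothelial markers was 309, 274 and 228 in DMSO and 211, 213 and 236 in treated cells, most of it TEK, with a mean of 204. The summed normalized count of the 3 leukocyte markers was 3.78, 13.0 and 8.35 in DMSO and 23.1, 17.4 and 16.0 in treated cells, nearly all of it CD14. The part of these few reads in the results was not tested.

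Promoter sequence from RefSeq (GRCh38.p14, 250 bases before to 50 bases after a transcription start) was found for 9 of the members, in 16 windows, and not for SHMT2. Each window was searched on both strands for TGATGNAA, the C/EBP-ATF composite element that ATF4 binds with a C/EBP partner, and for the palindrome TGACGTCA, the cyclic AMP response element. TGATGNAA was found in 3 members, ATF3, CHAC1 and ASNS, in 2.73% of the 10946 genes tested that had a window, and in 3.62% of the 35116 windows of all genes. TGACGTCA was found in no member, in 3.75% of those genes and in 1.85% of all windows. The stretches that hold a match are shown with the match in capitals, for ATF3 on the plus strand at chr1:212565157-212565333, for CHAC1 on the plus strand at chr15:40953251-40953280 and for ASNS on the minus strand at chr7:97872458-97872487. The match began 191 bases before the start in ATF3, at the more upstream of its 2 starts, 209 bases before it in CHAC1, where it reads on the opposite strand, and 68 bases before it in ASNS. GENCODE places the CHAC1 and ASNS matches in an untranslated exon of a longer transcript of the same gene, and for these only 30 bases are shown. The 250 bases before the start are also shown for CEBPB (chr20:50190580-50190829, plus strand) and PSAT1 (chr9:78296875-78297124, plus strand), the members with the highest and the lowest fold change among those that passed the test, and neither held either motif.
ATF3: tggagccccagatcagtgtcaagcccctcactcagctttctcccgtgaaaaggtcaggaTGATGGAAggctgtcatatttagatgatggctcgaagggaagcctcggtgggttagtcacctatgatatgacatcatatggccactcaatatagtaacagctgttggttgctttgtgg
CHAC1: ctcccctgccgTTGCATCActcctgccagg
ASNS: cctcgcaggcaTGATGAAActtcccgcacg
CEBPB: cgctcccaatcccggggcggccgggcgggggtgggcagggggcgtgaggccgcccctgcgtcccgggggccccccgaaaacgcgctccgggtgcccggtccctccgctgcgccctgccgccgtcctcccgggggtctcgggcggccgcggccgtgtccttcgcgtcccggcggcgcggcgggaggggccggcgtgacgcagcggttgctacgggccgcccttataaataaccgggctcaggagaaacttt
PSAT1: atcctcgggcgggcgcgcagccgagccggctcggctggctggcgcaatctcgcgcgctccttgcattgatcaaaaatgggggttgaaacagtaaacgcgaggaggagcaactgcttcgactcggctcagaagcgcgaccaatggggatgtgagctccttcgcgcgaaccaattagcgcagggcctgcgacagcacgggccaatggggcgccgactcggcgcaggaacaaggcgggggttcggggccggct
A match describes these letters only, and binding was not measured at any of these windows.

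Of the 10 members, 4 rose and 1 fell in treated cells at an adjusted p under 0.05 in limma's test across 13930 genes. The genes that rose were DDIT3, CEBPB, ATF3 and SESN2, and the gene that fell was PSAT1, while ATF4 itself, TRIB3, CHAC1, ASNS and SHMT2 did not pass. Across all genes tested, 1.26% were called higher (176 genes), 2.15% lower (299 genes) and 3.41% in either direction (475 genes). In 6 members every treated library lay above every DMSO library, as in 10.9% of all genes tested, and in 1 member every treated library lay below, as in 15.1% of all genes. An unadjusted p under 0.05 in limma was reached by 7 members and by 18.7% of all genes tested (2600 genes). The median log2 fold change of the members was 0.28, against -0.0075 over all genes tested. Because the members were chosen with earlier results of these data known, these contrasts with all genes are a description only. All 10 members passed the filter of a mean of at least 10, and would have passed it in either group alone. In bulk RNA, a change in how many cells express a gene and a change in RNA per cell cannot be told apart.

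**Figure D1:**
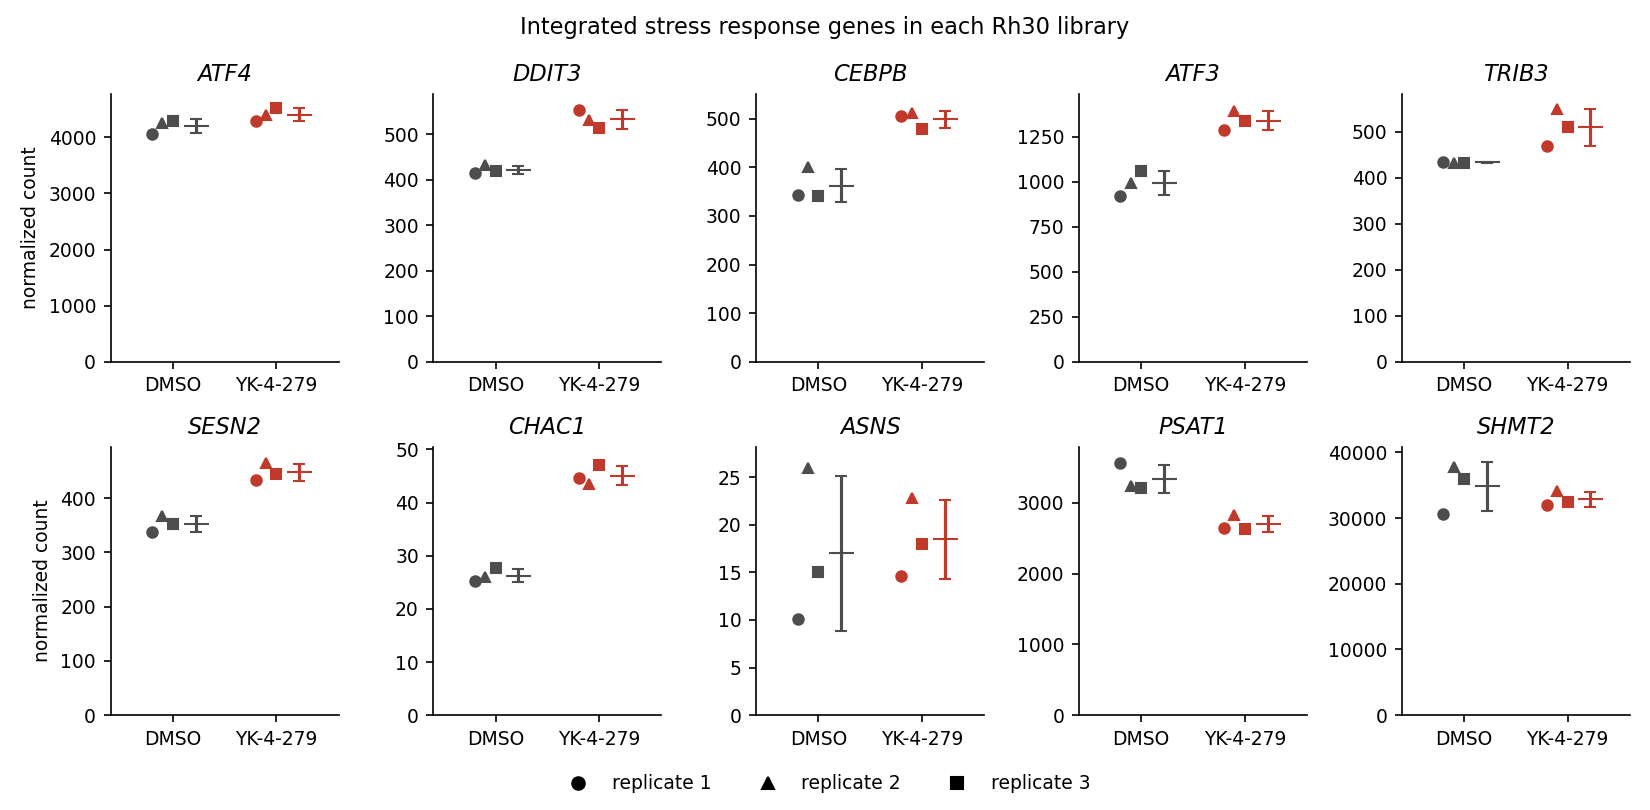
Normalized counts of the 10 members in each library, DMSO in gray and YK in red, with 1 symbol per replicate and the mean and SD of 3 libraries beside the points; every vertical axis starts at 0. The treated points of DDIT3, CEBPB, ATF3, TRIB3, SESN2 and CHAC1 lie above all DMSO points, those of PSAT1 lie below them, and those of ATF4, ASNS and SHMT2 overlap them.

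Among the transcription factors, ATF4, the factor at the head of the branch, had normalized counts of 4058, 4250 and 4297 in DMSO replicates 1, 2 and 3 and of 4296, 4392 and 4530 in the treated replicates. The groups overlapped by a single count, and the lowest value was that of DMSO replicate 1. The log2 fold change was 0.069 with an SE of 0.055 (limma adjusted p = 0.540), with a 95% interval from -0.051 to 0.19. It was 0.044 without DMSO replicate 1, 0.13 with quantile normalization and 0.0042 with the GC and length trend removed. ATF4 is located at chr22:39519695-39522683.

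DDIT3, which encodes CHOP, a factor linked to cell death under prolonged stress, was at 414, 432 and 418 normalized counts in DMSO and 554, 531 and 513 in treated cells. The 3 treated values all lay above the highest DMSO value. Its mean rose from 421 ± 9.39 to 533 ± 20.6 (SD, n = 3 each), which gave a log2 fold change of 0.34 with an SE of 0.080 (limma adjusted p = 0.0360). DDIT3 (chr12:57516588-57521737, minus strand) overlaps MARS1, on the other strand, by 982 bases at their ends, and how strand was used in counting is not given in the sources used here. MARS1 had a log2 fold change of -0.042.

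CEBPB, which encodes a C/EBP factor that can pair with ATF4, was at 344, 401 and 341 normalized counts in DMSO and 505, 512 and 479 in treated cells. DMSO replicate 2 was the highest of its group, and all treated libraries lay above it. The log2 fold change was 0.46 with an SE of 0.091 (limma adjusted p = 0.0152), the highest among the members that passed. CEBPB (chr20:50190830-50192668) has an antisense partner, CEBPB-AS1, which was listed at 7.51 to 24.0 normalized counts.

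ATF3, a stress-induced factor of the same bZIP class whose more upstream promoter holds the composite element shown above, was at 922, 994 and 1057 normalized counts in DMSO and 1286, 1394 and 1335 in treated cells. DMSO replicate 1 was the lowest of all 6 libraries and the groups did not overlap. The mean rose from 991 ± 67.7 to 1338 ± 54.1 (SD, n = 3 each), which gave a log2 fold change of 0.43 with an SE of 0.072 (limma adjusted p = 0.00741). The gene lies at chr1:212565334-212620777.

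The calls on the 3 factors that rose changed with the libraries left out, as did the calls across all genes. Without YK replicate 1, 2 or 3, 0.136%, 0.165% and 0.330% of all genes tested were called, against 3.41% with all 6 libraries. The share was 1.74% without DMSO replicate 3 and 13.1% without DMSO replicate 1. None of the 3 factors was called without YK replicate 1, 2 or 3. The limma adjusted p was then 0.224, 0.163 and 0.126 for DDIT3, 0.121, 0.112 and 0.0820 for CEBPB and 0.0650, 0.0829 and 0.0632 for ATF3. Without DMSO replicate 3, ATF3 was called and DDIT3 and CEBPB were not (limma adjusted p = 0.104 and 0.0609). Without DMSO replicate 1, all 3 were called, at log2 fold changes of 0.33, 0.43 and 0.38, with limma adjusted p of 0.00168, 1.23e-04 and 6.53e-07.

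Among the feedback and metabolic regulators, SESN2, a sestrin that restrains mTORC1 when leucine is scarce, was at 338, 367 and 352 normalized counts in DMSO and 434, 465 and 445 in treated cells. The groups were well separated, with the lowest treated value above the highest DMSO value. The mean rose from 352 ± 14.4 to 448 ± 15.6 (SD, n = 3 each), which gave a log2 fold change of 0.35 with an SE of 0.085 (limma adjusted p = 0.0410). SESN2 lies at chr1:28259518-28282491. It was not called without DMSO replicate 3 (limma adjusted p = 0.107) or without YK replicate 1, 2 or 3 (limma adjusted p = 0.165, 0.198 and 0.166).

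TRIB3, a pseudokinase that binds and restrains ATF4 in a feedback loop, was at 435, 433 and 433 normalized counts in DMSO and 470, 550 and 510 in treated cells. The DMSO libraries were nearly equal, whereas the treated libraries spread from slightly above them to well above them. The SD was 1.20 in DMSO and 40.1 in treated cells, each from 3 libraries, and this difference in spread was not tested. The log2 fold change was 0.23 with an SE of 0.085 (limma adjusted p = 0.166). TRIB3 (chr20:362835-397559) passed the test without DMSO replicate 1 (limma adjusted p = 0.0396), and with the GC and length trend removed its log2 fold change was 0.13 (limma adjusted p = 0.345).

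CHAC1, a glutathione-degrading enzyme, was at 25.2, 26.0 and 27.6 normalized counts in DMSO and 44.6, 43.5 and 47.0 in treated cells. The groups did not overlap, at a level that corresponded to between 20 and 52 reads when the smallest value is taken as 1 read. The log2 fold change was 0.76 with an SE of 0.21, the highest of all members, but the gene missed the threshold with limma adjusted p = 0.0657. Because 1 was added to each value before taking logs, the fold change of a gene this low is understated, and the ratio of the means was 1.72. CHAC1 (chr15:40952962-40956512) was called without DMSO replicate 1 (limma adjusted p = 0.0478) and when the variance was moderated without a trend on expression (limma adjusted p = 0.0263), a setting in which 33 genes or 0.237% of those tested were called, CHAC1 alone among the members. Over all alternatives its limma adjusted p ran from 0.0263 to 0.247.

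Among the enzymes, PSAT1, which makes phosphoserine in the serine synthesis pathway, was at 3563, 3244 and 3212 normalized counts in DMSO and 2641, 2826 and 2637 in treated cells. DMSO replicate 1 was the highest library, and all treated libraries lay below all DMSO libraries. The mean fell from 3340 ± 194 to 2702 ± 108 (SD, n = 3 each), which gave a log2 fold change of -0.30 with an SE of 0.063 (limma adjusted p = 0.0196). PSAT1 lies at chr9:78297125-78330093. Without DMSO replicate 1 the log2 fold change was -0.26 (limma adjusted p = 2.28e-05), and without YK replicate 1, 2 or 3 the gene was not called (limma adjusted p = 0.160, 0.0902 and 0.132).

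SHMT2, the mitochondrial enzyme that converts serine to glycine, was at 30674, 37770 and 36016 normalized counts in DMSO and 32006, 34160 and 32480 in treated cells. DMSO replicate 1 was the lowest of all 6 libraries, and the other DMSO libraries lay above all treated ones. The log2 fold change was -0.077 with an SE of 0.073 (limma adjusted p = 0.603). Without DMSO replicate 1 it was -0.17 and passed the test (limma adjusted p = 0.00544), and without DMSO replicate 2 it was -0.016 (limma adjusted p = 0.926). SHMT2 (chr12:57229573-57234935) lies 281.7 kb from DDIT3 on the same chromosome.

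ASNS, which makes asparagine and is a classical ATF4 target with the composite element close to its start, was at 10.1, 26.0 and 15.0 normalized counts in DMSO and 14.6, 22.8 and 18.0 in treated cells. The DMSO libraries spanned the whole range of the treated ones. The depth was 8 to 26 reads per library when the smallest value is taken as 1 read. No difference was detected, and the part of depth in this was not tested. The log2 fold change was 0.19 with a 95% interval from -0.59 to 0.97 (limma adjusted p = 0.824), and it was -0.12 without DMSO replicate 1 and -0.0228 with quantile normalization. ASNS lies at chr7:97851677-97872542 on the minus strand. The pseudogenes ASNSP3 and PSAT1P3 were listed at no more than 2.17 and 0.835 normalized counts in any library.

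Levels of the members were compared with each other per kilobase of the canonical GENCODE transcript, averaged over the 3 libraries of a group. In DMSO the order was SHMT2 at 16143 normalized counts per kb, ATF4 at 2961, PSAT1 at 1514, ATF3 at 511, DDIT3 at 466, CEBPB at 197, TRIB3 at 184, SESN2 at 102, CHAC1 at 17.3 and ASNS at 7.14. ATF3 and DDIT3 overlapped between libraries, and the gap of 12.9 per kb between CEBPB and TRIB3 was smaller than their summed SD of 18.7. The other neighbors lay further apart than their summed SDs. The order was the same in treated cells, where no neighbors overlapped and SHMT2 was at 15244, ATF3 at 690, DDIT3 at 590 and CHAC1 at 29.6 per kb. Over all libraries, SHMT2 was above 99.5% of the genes tested on this scale, ATF4 above 97.8% and PSAT1 above 93.6%. CHAC1 was above 17.1% and ASNS above 6.22%. The members thus covered nearly the full range of expression in Rh30 cells.

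**Figure D2:**
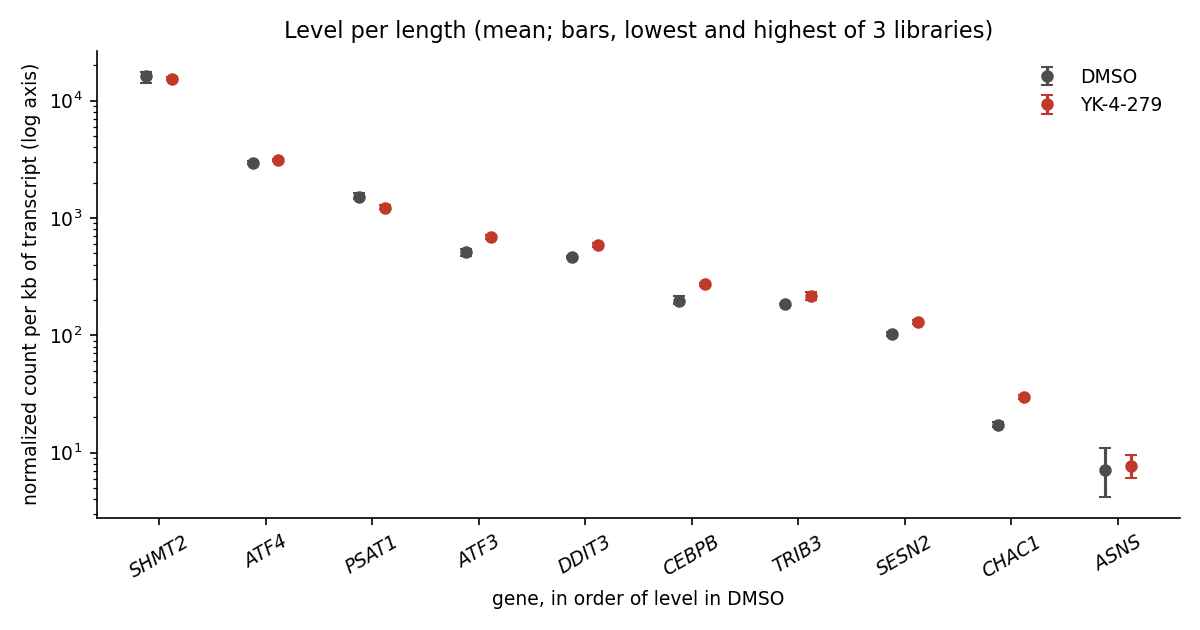
Level of each member per kilobase of transcript on a log axis, DMSO in gray and YK in red, as the mean with bars from the lowest to the highest of 3 libraries. SHMT2 is at 16143 per kb in DMSO and ASNS at 7.14, and the order of the genes is the same in both groups.

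Leaving out single libraries moved the number of calls far more than it moved the fold changes. Without DMSO replicate 1, 13.1% of genes were called (1823 genes), and the members called were DDIT3, CEBPB, ATF3, TRIB3, SESN2 and CHAC1, higher, and PSAT1 and SHMT2, lower. Without DMSO replicate 2, 4.85% were called (676 genes), with the same 5 members as in all 6 libraries. Without DMSO replicate 3, 1.74% were called (242 genes), among them ATF3 and PSAT1. Without YK replicate 1, 2 or 3, 0.136%, 0.165% and 0.330% were called (19, 23 and 46 genes), and no member was among them. The median log2 fold change of the members stayed between 0.25 and 0.37 in these 6 fits, and ASNS was the only member that changed sign in any of them.

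**Figure D3:**
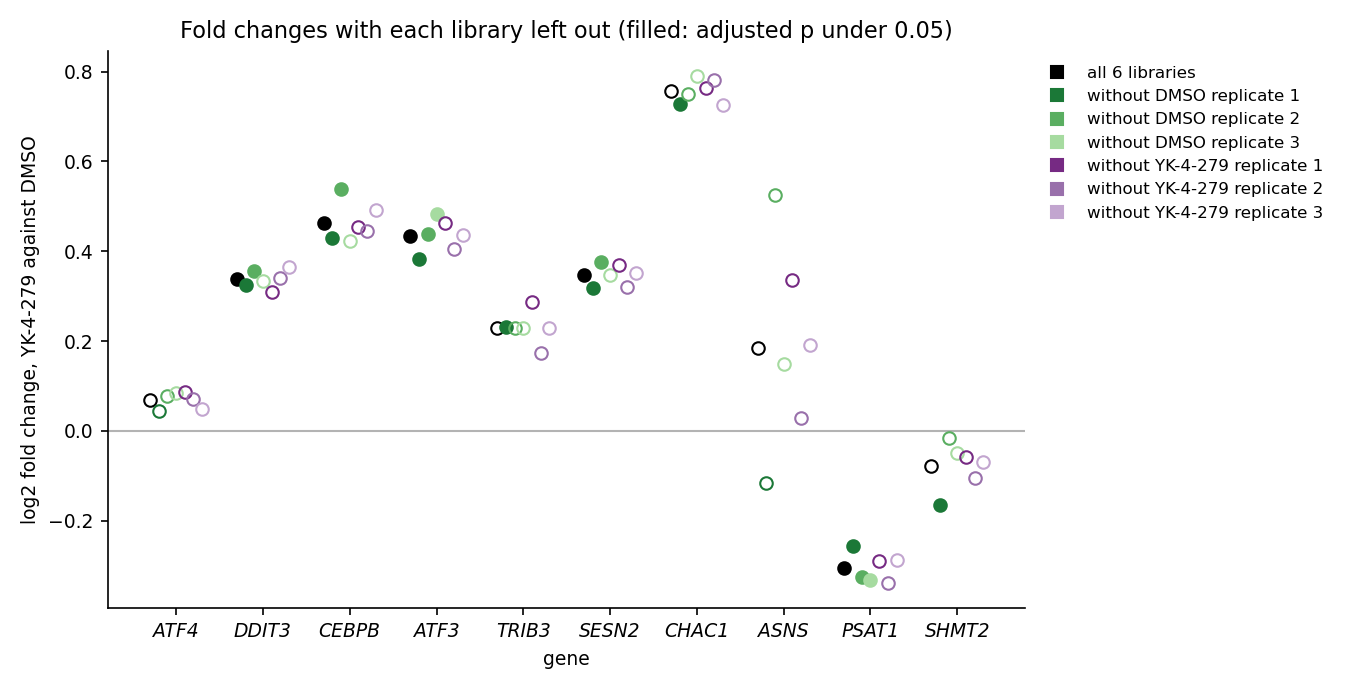
Log2 fold change of each member, YK against DMSO, with all 6 libraries (black) and with 1 library left out (green shades for DMSO, purple shades for YK); filled points have a limma adjusted p under 0.05. Points of DDIT3, CEBPB, ATF3, SESN2, CHAC1 and PSAT1 stay close together on 1 side of 0 while their filling changes, and ASNS spreads from -0.12 to 0.52.

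Scaling and trend removal moved the number of calls in opposite directions. With quantile normalization 1.99% of genes were called, 132 higher and 145 lower in place of 176 and 299. CEBPB, ATF3 and PSAT1 were called, and DDIT3 and SESN2 were just outside the threshold (limma adjusted p = 0.0517 and 0.0546), within ranges of 0.00168 to 0.224 and 0.00489 to 0.198 over all alternatives. With the trend of each library on GC content and transcript length removed, 14.3% of 13705 genes were called, 497 higher and 1469 lower. The same 5 members were called, at smaller log2 fold changes. These were 0.27 for DDIT3, 0.36 for CEBPB, 0.39 for ATF3, 0.27 for SESN2 and -0.28 for PSAT1. As reported they were 0.34, 0.46, 0.43, 0.35 and -0.30. SHMT2 moved away from 0 and was also called lower (log2 fold change -0.15, limma adjusted p = 0.0323).

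In the lists below, the gene with the highest mean is the one with the most normalized counts, without regard to transcript length. Upstream of ATF4, 4 kinases phosphorylate eIF2 in response to different stresses, and 0 of the 4 rose and 1 fell, the only 1 with an unadjusted p under 0.05 in limma, against 3.41% of all genes called and 18.7% at that p. EIF2AK2, which encodes PKR, the kinase activated by double-stranded RNA, was at 2606, 2339 and 2421 normalized counts in DMSO and 2029, 2009 and 1984 in treated cells. All treated libraries lay below all DMSO libraries, at a log2 fold change of -0.29 with an SE of 0.062 (limma adjusted p = 0.0232). EIF2AK1, the heme-regulated kinase with the highest mean of the 4, gave a log2 fold change of -0.043 (limma adjusted p = 0.810), which was 0.0072 with quantile normalization and 0.0595 without DMSO replicate 1. Of the 8 subunits of eIF2 and its exchange factor eIF2B, limma called 0, and 1 had an unadjusted p under 0.05, against 18.7% of all genes. That was EIF2S3, also the subunit with the highest mean, at a log2 fold change of -0.18 (limma adjusted p = 0.125). It was called lower without DMSO replicate 1 (limma adjusted p = 0.0297) and with the GC and length trend removed (limma adjusted p = 0.0205). The median log2 fold changes of these lists were -0.084 and -0.067.

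Of 7 genes of the phosphatase that reverses eIF2 phosphorylation and of kinase inhibitors, PPP1R15A alone was called, and 2 had an unadjusted p under 0.05 in limma, 1 higher and 1 lower, against 3.41% of all genes called and 18.7% at that p. It encodes GADD34, the stress-induced subunit that closes the feedback loop. It was at 499, 613 and 608 normalized counts in DMSO and 804, 899 and 842 in treated cells. DMSO replicate 1 was the lowest library, and the lowest treated value was well above the highest DMSO value. The log2 fold change was 0.57 with an SE of 0.091 (limma adjusted p = 0.00705), and without DMSO replicate 1 it was 0.47 (limma adjusted p = 2.90e-07). The catalytic subunit PPP1CB, with the highest mean of the list, gave a log2 fold change of -0.11 (limma adjusted p = 0.446), which was -0.018 without DMSO replicate 1 and -0.020 with the GC and length trend removed. Without YK replicate 1, 2 or 3, neither PPP1R15A (limma adjusted p = 0.0580, 0.0763 and 0.0543) nor EIF2AK2 (limma adjusted p = 0.140, 0.136 and 0.141) was called. EIF2AK2 was also not called without DMSO replicate 3 (limma adjusted p = 0.0709).

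Of 21 other partners and targets of ATF4, 19 were tested, 2 were called higher and 0 lower, and 17 had a fold change above 0, as did 48% of all genes tested, with a median of 0.14 on the log2 scale. An unadjusted p under 0.05 in limma was reached by 3 of the 19, all higher, against 3.41% of all genes called and 18.7% at that p. NUPR1 and FGF21 were below the filter. GDF15, a secreted stress cytokine, was at 382, 452 and 458 normalized counts in DMSO and 606, 674 and 622 in treated cells. KLHL24, a ubiquitin ligase adaptor, was at 426, 306 and 355 in DMSO and 507, 545 and 502 in treated cells. In both genes the treated libraries lay above the DMSO libraries, at log2 fold changes of 0.56 and 0.53 respectively (limma adjusted p = 0.00741 and 0.0222). STC2, a secreted glycoprotein and the target with the highest mean, gave a log2 fold change of 0.14 (limma adjusted p = 0.333) that was 0.0445 without DMSO replicate 1. Without YK replicate 1, 2 or 3, GDF15 (limma adjusted p = 0.0619, 0.0781 and 0.0543) and KLHL24 (limma adjusted p = 0.128, 0.148 and 0.0951) were not called. KLHL24 was also lost without DMSO replicate 3 (limma adjusted p = 0.0542).

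The enzymes around PSAT1 and SHMT2 gave 0 calls higher and 1 call lower among 13 genes of serine, one-carbon and proline metabolism. Over all genes tested, 3.41% were called in either direction. SHMT1, the cytosolic relative of SHMT2, was at 2102, 2302 and 2386 normalized counts in DMSO and 1760, 1921 and 1861 in treated cells. All treated libraries lay below all DMSO libraries, at a log2 fold change of -0.29 with an SE of 0.067 (limma adjusted p = 0.0321). An unadjusted p under 0.05 in limma was reached by 4 of the 13 genes, all lower, against 18.7% of all genes. A fold change above 0 was seen in 5 of the 13, against 48% of all genes tested. PHGDH, which precedes PSAT1 in serine synthesis and had the highest mean of the list, gave a log2 fold change of -0.048 (limma adjusted p = 0.728) that was 0.0103 with quantile normalization. With the GC and length trend removed it was -0.13 and called lower (limma adjusted p = 0.0288). SHMT1 was not called without DMSO replicate 3 (limma adjusted p = 0.121) or without YK replicate 1, 2 or 3 (limma adjusted p = 0.226, 0.119 and 0.145).

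Amino acid supply was represented by synthetases and transporters. Of the 20 cytosolic aminoacyl-tRNA synthetases, which charge tRNAs with amino acids and many of which ATF4 controls, limma called 0, and 3 had an unadjusted p under 0.05, 1 of them higher and 2 lower, against 18.7% of all genes. MARS1, the synthetase with the highest mean, gave a log2 fold change of -0.042 (limma adjusted p = 0.710) that was 0.0122 with quantile normalization. Of 12 amino acid transporters, 1 fell and 0 rose, and 3 had an unadjusted p under 0.05 in limma, 2 higher and 1 lower, against 3.41% of all genes called and 18.7% at that p. SLC7A3, a carrier of arginine and lysine, was at 475, 469 and 517 normalized counts in DMSO and 365, 343 and 335 in treated cells. The treated libraries were all lower, at a log2 fold change of -0.48 with an SE of 0.086 (limma adjusted p = 0.0105). The glycine transporter SLC6A9, named after its values were seen, had the highest log2 fold change of the list, 0.86, and did not pass (limma adjusted p = 0.0614). SLC38A1, a glutamine transporter with the highest mean, gave a log2 fold change of -0.010 (limma adjusted p = 0.950), which was 0.0437 with quantile normalization, 0.0052 with TMM scaling and 0.0226 with the GC and length trend removed. SLC7A3 was not called without YK replicate 1, 2 or 3 (limma adjusted p = 0.0740, 0.0829 and 0.0833).

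The other arms of the unfolded protein response, run by ATF6 and XBP1, raise chaperones of the endoplasmic reticulum. Of 24 such genes 1 was called, and it was lower, against 3.41% of all genes called in either direction. In limma, 7 of the 24 had an unadjusted p under 0.05, 3 higher and 4 lower, against 18.7% of all genes. ERO1A, an oxidase that forms disulfide bonds and is also an ATF4 and CHOP target, was at 1912, 1696 and 1707 normalized counts in DMSO and 1392, 1379 and 1397 in treated cells. The treated libraries were nearly equal and all below the DMSO libraries, at a log2 fold change of -0.35 with an SE of 0.067 (limma adjusted p = 0.0133). CALR, the chaperone with the highest mean, gave a log2 fold change of -0.11 (limma adjusted p = 0.384) and passed without DMSO replicate 1 (limma adjusted p = 0.00550) and with the GC and length trend removed (limma adjusted p = 0.0104), while it was -0.030 with quantile normalization and -0.064 without DMSO replicate 2. HSPA5, which encodes BiP and was named after its values were seen, had a log2 fold change of -0.043 (limma adjusted p = 0.731). ERO1A was not called without YK replicate 1, 2 or 3 (limma adjusted p = 0.114, 0.109 and 0.0928).

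Of 10 genes of the mitochondrial stress relay and its chaperones, limma called 0, and 1 had an unadjusted p under 0.05, against 18.7% of all genes. HSPD1, with the highest mean, gave a log2 fold change of -0.055 (limma adjusted p = 0.683), which was 0.0285 with quantile normalization and 0.0102 without DMSO replicate 1. Of 20 relatives of the members, such as other ATF, C/EBP, Tribbles and sestrin genes, 19 were tested, SHMT1 alone was called, and 3 had an unadjusted p under 0.05 in limma, 1 higher and 2 lower, against 3.41% of all genes called and 18.7% at that p. Of 8 stress-linked cell death genes, 6 were tested and limma called 0, with 3 at an unadjusted p under 0.05, all higher, against 18.7% of all genes in either direction. TNFRSF10B, the death receptor with the highest mean, was at 1600, 1734 and 1740 normalized counts in DMSO and 1874, 1969 and 1877 in treated cells. The groups did not overlap, but the log2 fold change of 0.17 did not pass (limma adjusted p = 0.157), while it passed with the GC and length trend removed (limma adjusted p = 0.0399).

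Calls were counted again in other settings. Without DMSO replicate 1, where 13.1% of all genes were called, limma called 1 of the 8 eIF2 and eIF2B subunits, 4 of the 13 serine, one-carbon and proline enzymes, 3 of the 12 transporters and 4 of the 24 endoplasmic reticulum genes. With the GC and length trend removed, where 14.3% of all genes were called, it called 1, 5, 5 and 5 of them. Without DMSO replicate 2, where 4.85% of all genes were called, it called 0, 3, 2 and 1. The other 7 lists described above moved by at most 1 call in these settings. Without DMSO replicate 1, limma called 0 of the 20 synthetases, 0 of the 10 mitochondrial genes, 0 of the 6 cell death genes, 1 of the 19 relatives, 1 of the 4 kinases, 2 of the 7 phosphatase genes and 3 of the 19 other ATF4 partners and targets. With the GC and length trend removed, these counts were 1, 1, 1, 1, 1, 2 and 2.

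**Figure D4:**
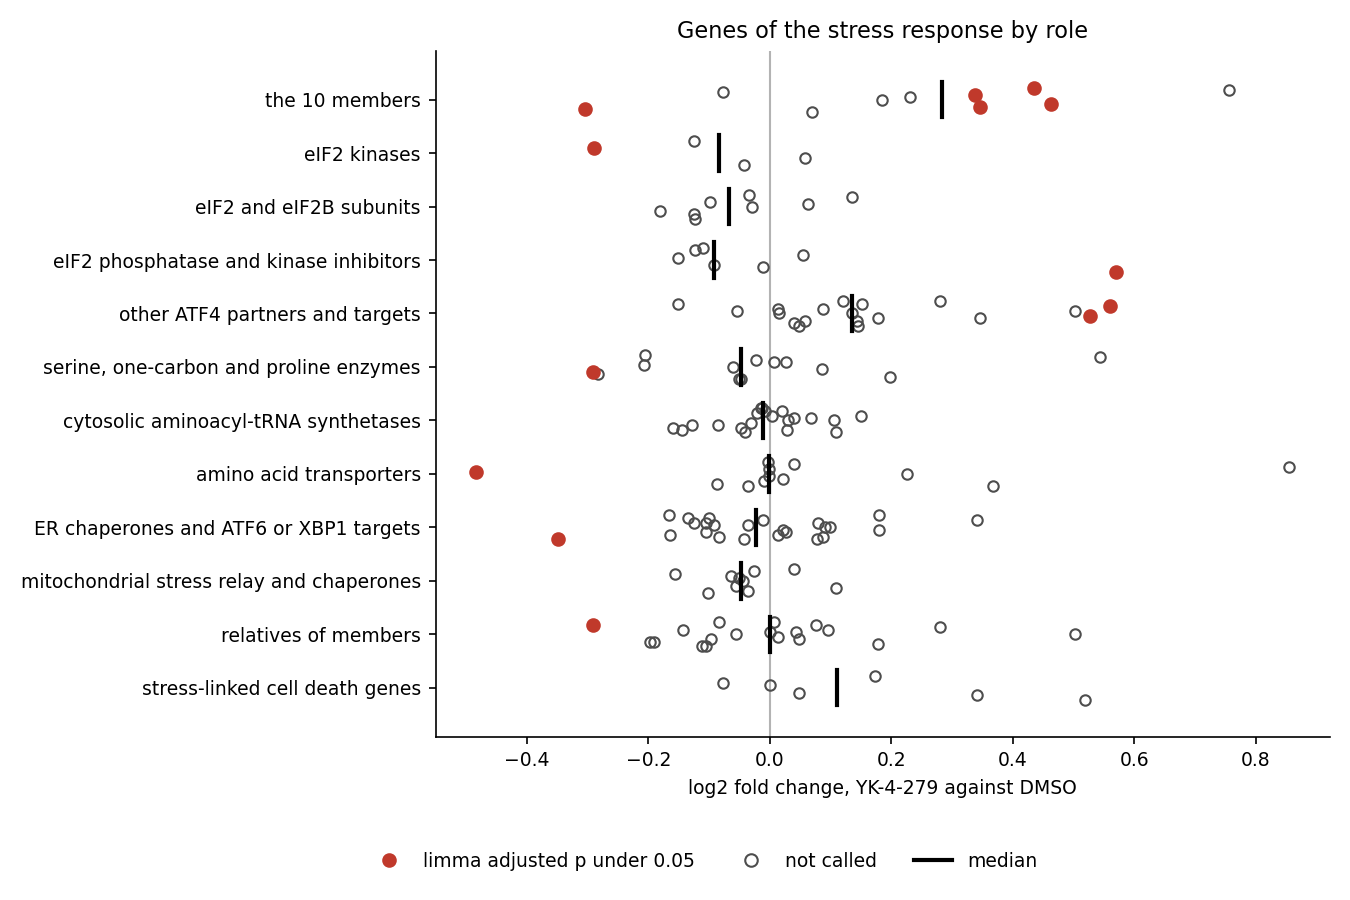
Log2 fold change of every tested gene in the members and in 11 lists of related genes, YK against DMSO, with a black bar at the median of each list; filled points have a limma adjusted p under 0.05. The members' median is at 0.28 and that of the other ATF4 partners and targets at 0.14, and filled points of the enzyme, kinase, transporter and chaperone lists lie to the left of 0.

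Among the 10691 other genes with a mean of at least 100, the genes whose log2 values over the 6 libraries correlated best with the mean of the standardized log2 values of the members were DAPK3, UBE2D4, POLR3D, WASF2 and SAP18, with Pearson's r of 0.996, 0.991, 0.990, 0.990 and 0.989. This is a description of 6 libraries that share the same group difference. The member profile itself was lowest in DMSO replicate 1, at -0.94, and was at -0.12 and -0.40 in the other DMSO libraries, whereas the treated replicates were at 0.21, 0.76 and 0.49. DAPK3, a kinase of the death-associated family, was at 908, 1107 and 1016 normalized counts in DMSO and 1204, 1319 and 1248 in treated cells. The groups did not overlap, with a log2 fold change of 0.32 (limma adjusted p = 0.0466). The other 4 genes were not called, with limma adjusted p of 0.117, 0.298, 0.291 and 0.303. All 5 were picked for following the members in these same libraries, so their p-values are not independent of that choice.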

How the data were processed

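Reads from polyA RNA libraries were trimmed by the authors with BBDuk, aligned to hg38 and counted per gene with STAR 2.7.9a, and DESeq2 1.44.0 is named in the submitters' processing notes. The deposited values are a normalized signal, that is, normalized counts per gene, for 6 libraries. Of 35269 entries, the only unnamed one, at most 6 reads deep, was dropped. A pseudocount of 1 was added and log2 taken. The lmFit and eBayes functions of limma 3.58.1, run in R 4.3.3 with a variance trend, compared the groups with two-sided tests for 13930 genes whose mean was 10 or higher. Benjamini-Hochberg adjustment covered all of these genes, and the code was tested on simulated data. Positions and transcript lengths are from GENCODE v44 on hg38, and promoter windows are from RefSeq.

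The members and lists were chosen with earlier results of these data known. The genes named were all members, in each list the tested gene with the highest mean (in the list of relatives it is not reported here) and up to 3 called genes with the largest changes, and the 5 genes most like the members. SLC6A9 and HSPA5 were added after their values were seen. Alternatives were other pseudocounts (0.5 and 10), filters (a mean of 100, or none) and scalings, eBayes without a trend, a replicate block, removal of GC and length trends, and leaving out each library.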

Additional observations from a re-analysis of the deposited data

How the results depend on the processing

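Of the members, 9 kept their direction in every alternative that tested them, and ASNS turned to -0.0228 with quantile normalization and to -0.12 without DMSO replicate 1. The median log2 fold change of the members lay between 0.24 and 0.37 in all alternatives. Other pseudocounts, other filters and TMM scaling left the same 5 members called, while the filter of a mean of at least 100 left CHAC1 and ASNS untested. The number of genes called was 277 with quantile normalization, 33 without a variance trend and 1966 with GC and length trends removed, against 475. The members called higher were then 2, 1 and 4, and those called lower 1, 0 and 2. Leaving out 1 library gave between 19 and 1823 genes called, between 0 and 6 members called higher and between 0 and 2 called lower. A fit without 1 library has fewer samples. The number of genes called fell without any 1 treated library or DMSO replicate 3, and rose without DMSO replicate 1 or 2. The reason for this was not tested.

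With the replicate block, 180 genes were called, 2 members higher (CEBPB and ATF3) and 0 lower. The correlations of deviations from the group means between libraries of the same number were -0.0985, -0.0269 and -0.0267. With 3 libraries per group these values cannot show whether libraries of the same number were prepared together. The labels give only the number.

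Genes whose fold changes were near 0 changed sign in some settings, and the cause was not tested. With quantile normalization EIF2AK1 was at 0.0072, PHGDH at 0.0103, MARS1 at 0.0122, SLC38A1 at 0.0437 and HSPD1 at 0.0285. SLC38A1 was at 0.0052 with TMM scaling and 0.0226 with GC and length trends removed, where AEN was at -0.0486 and MTOR at -0.0496. Leaving out 1 library gave ranges of -0.12 to 0.52 for ASNS, -0.1028 to 0.0595 for EIF2AK1, -0.1028 to 0.0001 for PHGDH, -0.0405 to 0.0261 for SLC38A1, -0.0946 to 0.0102 for HSPD1, -0.0939 to 0.0880 for AEN, -0.0424 to 0.0753 for HSP90AA1 and -0.0105 to 0.0315 for MTOR.

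The planned edgeR and DESeq2 fits on reads recovered from the values were not run. The lowest members held few reads, 8 to 26 for ASNS and 20 to 52 for CHAC1 when the smallest value is taken as 1 read. The part of depth in their results was not tested.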

Other observations

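Other stress programs were examined in the same way. Of 20 p53 target genes 19 were tested, and 7 had an unadjusted p under 0.05 in limma, 6 higher and 1 lower, against 18.7% of all genes. Among the 19, 2 were called, both higher, against 3.41% of all genes called. These were GDF15, which is also an ATF4 target, and PLK2, a polo-like kinase gene at 1033, 943 and 981 normalized counts in DMSO and 1285, 1239 and 1300 in treated cells (log2 fold change 0.37, limma adjusted p = 0.0109). AEN, with the highest mean of that list, gave a log2 fold change of 0.017 (limma adjusted p = 0.941) that was -0.0939 without DMSO replicate 1 and -0.0486 with GC and length trends removed. Of 10 NRF2 target genes 9 were tested, HMOX1 and OSGIN1 were called higher, and 5 had an unadjusted p under 0.05 in limma, 3 higher and 2 lower, against 3.41% of all genes called and 18.7% at that p. HMOX1, the inducible heme oxygenase, was at 166, 246 and 232 normalized counts in DMSO and 320, 351 and 296 in treated cells (log2 fold change 0.60, limma adjusted p = 0.0320). OSGIN1 had a log2 fold change of 0.73 (limma adjusted p = 0.0325), whereas TXN, with the highest mean, gave one of -0.18 (limma adjusted p = 0.144). TXN was called lower without DMSO replicate 1 (limma adjusted p = 0.0378) and with GC and length trends removed (limma adjusted p = 0.0261).

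Of 10 cytosolic heat shock genes 3 had an unadjusted p under 0.05 in limma, all higher, against 3.41% of all genes called and 18.7% at that p, and 1 was called, HSPB1, a small heat shock protein with a log2 fold change of 0.28 (limma adjusted p = 0.0247). It was at 0.14 and not called with GC and length trends removed (limma adjusted p = 0.156), and it was not called with the replicate block (limma adjusted p = 0.0586). HSP90AA1, with the highest mean, gave a log2 fold change of 0.0053 (limma adjusted p = 0.979), which was -0.0424 without DMSO replicate 2. Of 14 regulators of mTORC1, the growth kinase complex that SESN2 restrains, 13 were tested, limma called 0, and 0 had an unadjusted p under 0.05, against 18.7% of all genes, while 2 were called without DMSO replicate 1. MTOR, with the highest mean, gave a log2 fold change of 0.011 (limma adjusted p = 0.944), which was -0.0496 with GC and length trends removed. Over all 15 lists outside the members, each gene counted once, 7 of 176 genes were called higher and 4 lower, which is 6.25% against 3.41% of all genes tested. The lists too were chosen with earlier results of these data known. Of the 11 list genes called, 7 were called without DMSO replicate 3, all 11 without DMSO replicate 1, and 0 without YK replicate 1, 2 or 3. With eBayes without a trend 0 of them were called, with quantile normalization 7 (EIF2AK2, SHMT1, HMOX1 and OSGIN1 were lost), with the replicate block 7 (EIF2AK2, SHMT1, OSGIN1 and HSPB1 were lost) and with GC and length trends removed 10. In all, 31 list genes were called without DMSO replicate 1, where 13.1% of all genes were called, 33 with GC and length trends removed (14.3% of all genes) and 16 without DMSO replicate 2 (4.85% of all genes). Without DMSO replicate 1, these included 5 of the 19 p53 targets, 4 of the 9 NRF2 targets and 3 of the 10 heat shock genes. With GC and length trends removed, the counts for these lists were 4, 5 and 2, and without DMSO replicate 2 they were 2, 3 and 2. Without YK replicate 1, 2 or 3, PLK2 had limma adjusted p of 0.108, 0.0781 and 0.0928, HMOX1 0.168, 0.181 and 0.0951, OSGIN1 0.184, 0.180 and 0.0914, and HSPB1 0.165, 0.173 and 0.0928, and HSPB1 was also lost without DMSO replicate 3 (limma adjusted p = 0.0783).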
